A study of Mus musculus with 20 samples.

Results

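Mitochondrial ribosomal proteins are encoded in the nucleus, made in the cytosol and imported into mitochondria, where they build the mitochondrial ribosome. Members were chosen by symbol alone, as the protein-coding genes with a symbol of Mrpl or Mrps and then a digit. Of the 28632 genes in the count table, 78 met this rule. They comprised 49 genes with Mrpl symbols, which name large-subunit proteins, and 29 with Mrps symbols, which name small-subunit proteins. By structure, the products of Mrps30 and Mrps18a sit in the large subunit and that of Mrps36 belongs to the 2-oxoglutarate dehydrogenase complex, which gives 51 large, 26 small and 1 other. All 78 members averaged at least 100 normalised counts, and their lowest raw count in any library was 98.

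Bulk RNA sequencing was done on whole islets of 12-week-old mice lacking Mfn1, Mfn2 or both in β-cells. These genes encode the mitofusins, which fuse the outer membranes of mitochondria. The groups were 6 Ctrl libraries (3 female, 3 male), 4 β-Mfn1KO (Mfn1-/-, 3 female, 1 male), 5 β-Mfn2KO (Mfn2-/-, 2 female, 3 male) and 5 β-Mfn1/2DKO (Mfn1-/-;Mfn2-/-, 2 female, 3 male). Floxed alleles were deleted by a Cre knocked into Ins1, so the deletion was directed to β-cells, while RNA came from every cell type of the islet. The labels call the controls wild type, but the study's methods describe a pool in which some controls carried only Cre and others only floxed alleles. All islets were isolated with collagenase and then kept in culture for a day. The labels list each library as a sample of its own, and the tests treat libraries as independent. The study calls the controls littermates, but the labels do not say which libraries share a litter.

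Depth differed with genotype. Total counts per library were 12400687 to 20329064 in Ctrl, 15745680.0 to 16685381 in β-Mfn1KO and 65533388 to 122947313 in β-Mfn1/2DKO. In β-Mfn2KO, libraries 1, 2 and 3 held 15471421, 18919122 and 15110046, and libraries 4 and 5 held 55962873 and 59533407. Every β-Mfn1/2DKO library was deeper than every library of the other groups, so depth and the double deletion cannot be told apart in comparisons with them. The same holds for the interaction, which includes the β-Mfn1/2DKO libraries. No member had a count of 0 in any library, deep or shallow.

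The mitochondrial ribosome translates the few messenger RNAs of the mitochondrial genome, which encode core subunits of the respiratory chain and ATP synthase. Its RNA comes from the mitochondrial genome, while all of its proteins come from nuclear genes, so the parts of each subunit are made in separate compartments. The large subunit holds the peptidyl transferase centre, where peptide bonds form, an exit tunnel docked at the inner membrane, a factor-binding stalk and a central protuberance, and the small subunit holds the decoding centre. Many members descend from bacterial ribosomal proteins and others are found only in mitochondria. β-cells depend on mitochondrial respiration to couple glucose to insulin release.

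The transcripts of the deleted genes were examined first. Mfn1 had 1518 to 1807 (median 1693, n = 6) normalised counts in Ctrl, that is, counts scaled to a common library size. It had 770.4, 621, 631 and 674 in β-Mfn1KO, 690.3, 691, 687, 856 and 1062 in β-Mfn1/2DKO and 1683 to 1807 in β-Mfn2KO. The libraries with the deletion lay below every Ctrl library, and β-Mfn1/2DKO libraries 4 and 5 were the highest of their group. The log2 fold change was -1.31 ± 0.11 (adjusted p = 6.58e-07) in β-Mfn1KO and -1.07 ± 0.094 (adjusted p = 6.30e-08) in β-Mfn1/2DKO. Values after ± are standard errors, and every adjusted p here comes from the quasi-likelihood test of edgeR over all 28632 genes. Mfn2 had 3089 to 4373 (median 3252, n = 6) in Ctrl, 1532, 1586, 1688, 1474 and 1608 in β-Mfn2KO, 2022, 2082, 2062, 2131 and 2124 in β-Mfn1/2DKO and 3869 to 4607 in β-Mfn1KO. Again the libraries with the deletion lay below every Ctrl library. The log2 fold change was -1.15 ± 0.077 (adjusted p = 1.11e-08) in β-Mfn2KO and -0.75 ± 0.075 (adjusted p = 3.32e-07) in β-Mfn1/2DKO. These values fit the genotype labels, with residual transcript in whole islets.

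Cell type markers were also read. Of 12 β-cell markers, 12 fell in β-Mfn1/2DKO. Ins1, the gene that carries Cre, was also called lower in β-Mfn2KO at -0.94 ± 0.13 (adjusted p = 0.00144) and in β-Mfn1KO at -0.82 ± 0.14 (adjusted p = 0.0324), where the other 11 were not called, so in Ins1 the Cre allele and the deletion cannot be told apart. The summed level of the 12 was 6130766 to 9754706 in Ctrl, and it was 3663099.6, 3610466, 3356646, 3237414 and 2698694 in the β-Mfn1/2DKO libraries. Ins2 was the most abundant, with means of 4936000.0 and 2313000.0. In bulk samples, fewer cells of a type and less RNA per cell cannot be told apart. Of 22 acinar markers, 21 rose in β-Mfn1/2DKO. Their sum was 16745 to 114719 in Ctrl and 26153, 44203, 26136, 1006390.1 and 2612060.4 in β-Mfn1/2DKO, so libraries 4 and 5 stood far above the rest. β-Mfn2KO library 4 was also high, at 441274, against 29871 to 104492 in the other β-Mfn2KO libraries, and the β-Mfn1KO sums were 6512 to 39144. Amy2a5 was the most abundant acinar gene over all 20 libraries, though Ctrb1 was above it in Ctrl (14980.0), with Amy2a5 means of 14240.0 in Ctrl and 190500.0 in β-Mfn1/2DKO, and Amy2b, Ctrc and Prss1 reached 0 in at least 1 Ctrl library, as did Cftr among ductal and Lum among stellate markers.

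Markers of other cell types were read in the same way. Of 8 endothelial markers, 8 rose in β-Mfn1/2DKO, with sums of 6483 to 9781 in Ctrl and 11373, 10779, 9512, 14621 and 13761 in β-Mfn1/2DKO, and Kdr as the most abundant gene. Among 8 ductal markers 3 rose. Krt7, the most abundant, was above every Ctrl library in all 5 β-Mfn1/2DKO libraries, while Krt19 (2868 and 5190.4) and Muc1 (325 and 558) exceeded Ctrl only in β-Mfn1/2DKO 4 and 5. Ductal sums were 32943 to 40941 in Ctrl and 41192 to 49479.6 in β-Mfn1/2DKO. Of 8 α-cell markers 1 rose, and Gcg dominated sums of 661630.1 to 2110666 in Ctrl and 1328461 to 2233170.1 in β-Mfn1/2DKO. By edgeR 0 of 4 δ-cell and 0 of 2 PP-cell markers changed (1 and 0 at unadjusted p under 0.05, and 0 and 0 by DESeq2). Sst led δ-cell sums of 87759 to 174268 in Ctrl and 78500.1 to 118702 in β-Mfn1/2DKO, and Ppy led PP-cell sums of 132998 to 243585 and 125436 to 180723. Of 9 leukocyte markers 1 fell and of 8 stellate markers 1 rose. Leukocyte sums were 4349.5 to 6327 in Ctrl 1 to 5, 26159.5 in Ctrl 6 and 4257 to 9640.3 in β-Mfn1/2DKO. Stellate sums were 1053 to 2051 in Ctrl 1 to 5, 13754 in Ctrl 6 and 2440.4 to 4704 in β-Mfn1/2DKO, so Ctrl 6 stood apart, and the other 5 Ctrl libraries were below every β-Mfn1/2DKO library. β-Mfn2KO 5 also stood apart, at 35556 and 14833. Over all 20 libraries Lyz2 and Col1a1 had the highest means of these lists, but both did so through single libraries such as Ctrl 6 (18202 and 4228). In β-Mfn1/2DKO the highest means were those of Cd74 (2284) and Col3a1 (744). The part of these markers and of depth in the changes of members given below was not tested beyond the alternatives named.

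Members covered a wide range of transcript levels. Per kilobase of transcript and over all 20 libraries, the mean level ran from 124 to 3876 normalised counts, a 31.3-fold range, with a median of 913 for Mrpl genes and 744 for Mrps genes. The highest levels per kilobase were those of Mrps33 (3876), Mrps21 (3262) and Mrpl17 (2954), and the lowest those of Mrpl35 (124), Mrpl47 (165) and Mrpl19 (167). These levels rest on the annotated length, which was 3721, 3364 and 5000 bases in the lowest 3 against a median of 1051.5, and Mrpl47 and Mrpl19 are among the uncertain members. The counterpart set of 98 genes, called cytosolic ribosomal protein genes here, had a median of 13600.0 per kilobase. It holds protein-coding genes chosen by symbol alone, as Rpl, Rps or Rplp and then a digit. That rule also admits kinases and other genes that are not ribosomal proteins, and these were not removed. The members lie on 17 chromosomes, with 11 members on chromosome 11 and 0 on the mitochondrial chromosome.

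In β-Mfn1/2DKO islets most members sat slightly above Ctrl, and a minority passed the test. Of 78 members, 21 rose and 3 fell at an adjusted p under 0.05. Among all 28632 genes, 9.59% rose and 6.86% fell, and among the 12274 genes with a mean of at least 100, to which all members belong, 19.5% rose and 14.02% fell. The members' 21 is 26.9% of them and their 3 is 3.85%, and the difference from that background was not tested. The median log2 fold change was 0.11 for members and 0.031 for the 12274 genes, and 59 of 78 members were above 0, against 6826 of those genes. At an unadjusted p under 0.05, 30 members were higher and 6 lower, and DESeq2 called 25. Changes were small: the largest, in Mrpl38, was 1.37-fold, while 7.44% of the 12274 genes passed both the test and a fold change of 1.5.

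The split between higher and lower calls moved with the scaling. It was 16 higher and 5 lower with DESeq2 size factors, 43 and 0 with total counts, 12 and 7 with offsets for transcript length and GC content, and 17 and 2 with the authors' normalization factors. Over all 28632 genes the splits were 2291 and 2378, 5393 and 949, 2096 and 2707, and 1857 and 1995, in the same order. These counts include genes with a mean under 100. In the chosen fit 9.59% of all genes rose, against 19.5% of the 12274, so shares over all genes run low beside members. Calls over the 12274 genes alone were not counted in the alternative fits. Total-count scaling moved the median of the 12274 genes from 0.031 to 0.17, and relative to that median the members sat at 0.078 with the chosen scaling and at 0.079 with total counts. When a covariate for depth class (the 7 deep libraries against the rest) was added, 2 members were called, both lower. The members' median then lay at -0.046 relative to that of the 12274 genes. Of all 28632 genes 728 were called in that fit (425 higher, 303 lower), against 4710 without the covariate. That fit takes its depth term from the β-Mfn2KO libraries alone. Without β-Mfn1/2DKO libraries 4 and 5, 21 members rose and 0 fell by edgeR. Of all 28632 genes 2107 rose and 1114 fell in that fit, against 2745 and 1965 with all libraries.

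**Figure D1:**
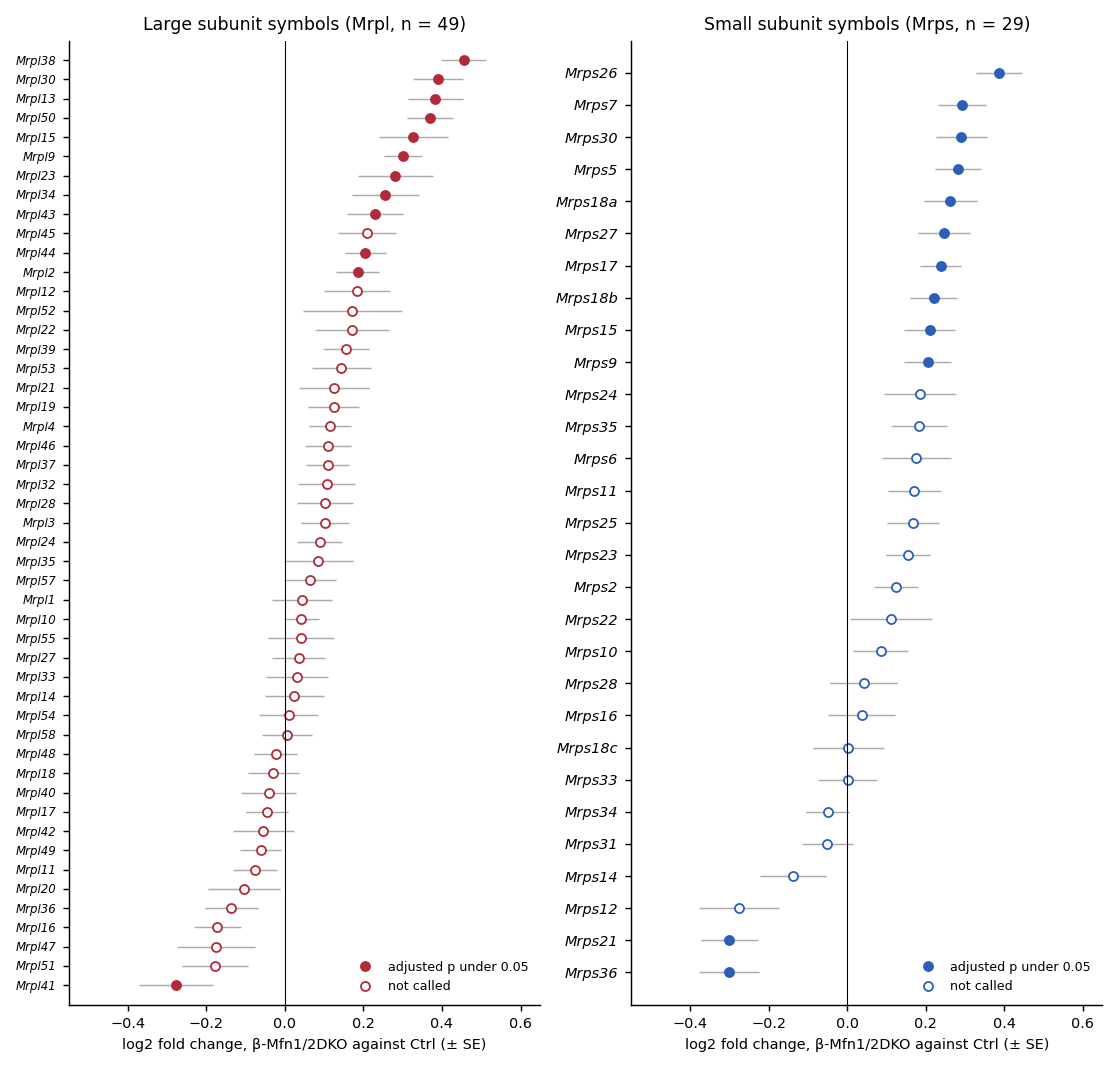
Log2 fold change in β-Mfn1/2DKO (5 libraries) against Ctrl (6 libraries) for the 49 Mrpl and 29 Mrps genes, with bars for the standard error and filled points for an adjusted p under 0.05. Filled points comprise 21 above 0 and 3 below, and with total-count scaling 43 members were called, with 0 below. Over all 28632 genes that scaling gave 5393 calls above 0 and 949 below.

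Calls and medians were read for each subunit. Of 49 Mrpl genes 11 rose and 1 fell, with a median log2 fold change of 0.10, and of 29 Mrps genes 10 rose and 2 fell, with a median of 0.17. Grouped by structure, 13 rose and 1 fell of 51 large-subunit genes, and 8 rose and 1 fell of 26 small-subunit genes, with medians of 0.10 and 0.16. Higher calls were 22.4% of Mrpl and 34.5% of Mrps genes, and 25.5% and 30.8% by structure, against 19.5% of the 12274 genes, and lower calls 2.04% and 6.90%, and 1.96% and 3.85%, against 14.02%. The order of the medians was not the same under every scaling: with the authors' own normalization factors it was 0.11 for both, and the difference was not tested. Of 45 bacterial-type members 12 rose and 1 fell (median 0.10), and of 32 found only in mitochondria 9 rose and 1 fell (median 0.13), so 26.7% and 28.1% of them were called higher.

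Counts were also summed over each subunit. The ratio of Mrpl to Mrps counts was 1.70 to 1.79 in Ctrl (mean 1.73), 1.72 to 1.76 in β-Mfn1KO (mean 1.74), 1.72 to 1.74 in β-Mfn2KO (mean 1.73) and 1.72 to 1.76 in β-Mfn1/2DKO (mean 1.73). The group ranges overlapped, and the difference was not tested. Ctrl 2 (1.79) alone set the top of the Ctrl range, with the other 5 at 1.70 to 1.75. Members took 0.198 to 0.220% of all counts in Ctrl and 0.214 to 0.263% in β-Mfn1/2DKO. Compared with the Ctrl mean, the median member in the β-Mfn1/2DKO libraries sat at log2 0.10, 0.21, 0.084, 0.15 and -0.041, so library 5, which had the highest acinar sum and the lowest depth of the group, was the only 1 below 0.

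**Figure D2:**
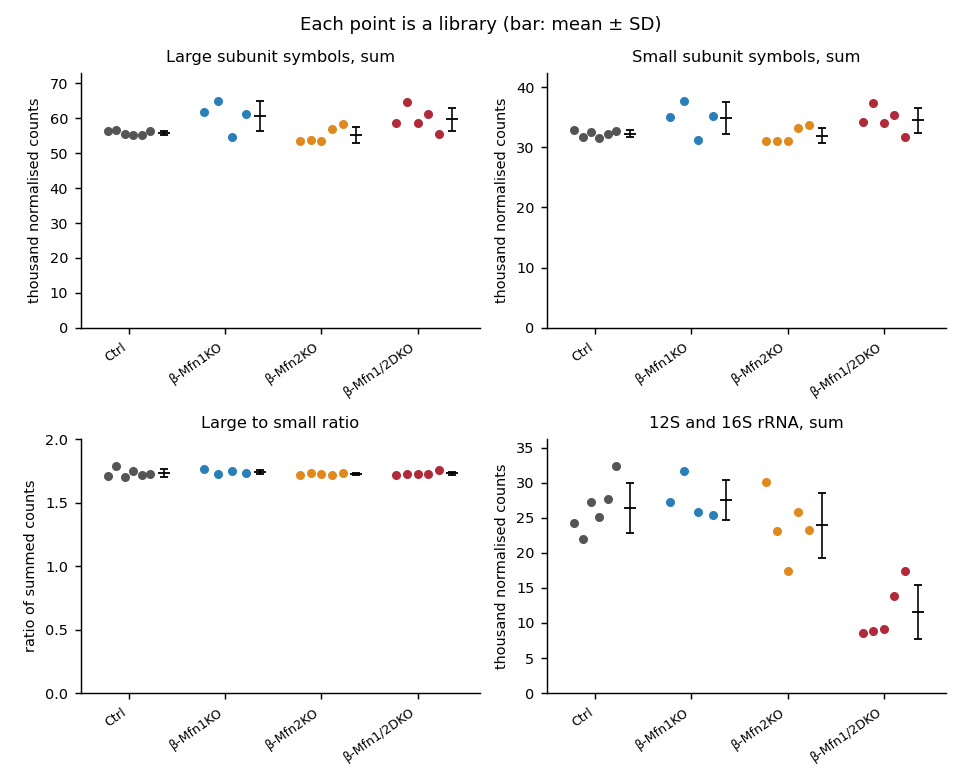
Summed normalised counts, in units of 1000, of Mrpl genes, of Mrps genes and of the mitochondrial rRNAs, and the ratio of Mrpl to Mrps counts, with a point for each library and a bar for mean and SD. The ratio stays between 1.70 and 1.79 in Ctrl and 1.72 and 1.76 in β-Mfn1/2DKO, while the rRNA sum is lower in every β-Mfn1/2DKO library than in any Ctrl library.

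In the central protuberance, which bridges the subunits at the top of the ribosome, 1 of 9 members rose. This was Mrpl38, which is found only in mitochondria. It had 1305 to 1508 (median 1412, n = 6) in Ctrl and 1845, 1950.3, 1809, 2082 and 2017 in β-Mfn1/2DKO. Each β-Mfn1/2DKO library exceeded every Ctrl library, while β-Mfn1KO (1445 to 1578) and β-Mfn2KO (1303 to 1605) overlapped Ctrl. The log2 fold change was 0.46 ± 0.058 (adjusted p = 6.89e-06). The other 8 protuberance members ran from -0.041 to 0.17.

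At the exit tunnel, through which the new protein leaves, 1 of 6 members rose, and 0 of these 6 were called by DESeq2. Mrpl23 had 869 to 1248 (median 981, n = 6) in Ctrl and 1291, 1454, 1276, 1230.2 and 1042 in β-Mfn1/2DKO, so libraries 4 and 5 were within the Ctrl range and the other 3 above it. Its log2 fold change was 0.28 ± 0.10 (adjusted p = 0.0488). That call was lost when any 1 of 14 libraries was left out (Ctrl 1, 2, 4 and 5, β-Mfn1KO 1, 2 and 4, β-Mfn2KO 1, 2 and 4, β-Mfn1/2DKO 1 to 4), with adjusted p between 0.0503 and 0.120. Mrpl45, the protein that ties the tunnel to the inner membrane, had 544 to 683 (median 622, n = 6) in Ctrl and 695, 799, 683, 698 and 679 in β-Mfn1/2DKO, where library 2 was the highest and 3 libraries exceeded Ctrl. Its value was 0.21 ± 0.074 (adjusted p = 0.0569). It passed when Ctrl 2, β-Mfn2KO 3 or 5, or β-Mfn1/2DKO 1 or 3 was left out, with adjusted p from 0.0212 to 0.0447, and with replicate number as a block (0.0340). Mrpl17, Mrpl22, Mrpl24 and Mrpl47 gave -0.046, 0.17, 0.089 and -0.17 and did not pass.

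Near the peptidyl transferase centre, 1 of 3 members rose. Mrpl2 had 1474 to 1656 (median 1523, n = 6) in Ctrl and 1762, 1806, 1763, 1794 and 1624 in β-Mfn1/2DKO. Here 4 β-Mfn1/2DKO libraries exceeded every Ctrl library and library 5 did not. The log2 fold change was 0.19 ± 0.055 (adjusted p = 0.0219), and adjusted p was 0.0507 without Ctrl 1. With DESeq2 size factors adjusted p was 0.0553, with offsets for length and GC 0.594, and with the authors' factors 0.132. Mrpl3 gave 0.10 ± 0.061 (adjusted p = 0.300). Mrpl16 gave -0.17 ± 0.060 (adjusted p = 0.0527), and passed when Ctrl 5, Ctrl 6 or β-Mfn1/2DKO 2 was left out (adjusted p 0.0283 to 0.0469) and with DESeq2 size factors (0.0228). In the stalk, which recruits translation factors, 0 of 3 members were called by edgeR (1 at an unadjusted p under 0.05, 0 by DESeq2). Mrpl10, the base of the stalk, gave 0.042, Mrpl11 gave -0.075 and Mrpl12, its mobile arm, 0.18.

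Outside the 5 named positions lay 54 of the 78 members, of which 17 rose (31.5%) and 3 fell (5.56%), against 19.5% and 14.02% of the 12274 genes. At those positions the numbers are too small for shares. Mrpl30, a bacterial-type protein of the large subunit, had 1014 to 1229.7 (median 1077, n = 6) in Ctrl and 1381, 1588, 1432, 1442 and 1319 in β-Mfn1/2DKO. Every Ctrl library lay below these, with β-Mfn1/2DKO 5 the nearest to them. The log2 fold change was 0.39 ± 0.063 (adjusted p = 0.000137). Mrpl13 (0.38, adjusted p = 0.000425), Mrpl50 (0.37, 0.000118), Mrpl15 (0.33, 0.0113) and Mrpl9 (0.30, 0.000138) also rose. In Mrpl13, Mrpl15 and Mrpl9 all 5 β-Mfn1/2DKO libraries were above all Ctrl libraries, and in Mrpl50 4 were. With the authors' factors, Mrpl15 gave 0.15 and did not pass (adjusted p 0.506). Mrps30 and Mrps18a, both part of the large subunit by structure, rose by 0.29 ± 0.064 and 0.26 ± 0.068. Mrps30 had 669 to 896 (median 751, n = 6) in Ctrl and 895, 992, 891, 959 and 951 in β-Mfn1/2DKO, so 3 β-Mfn1/2DKO libraries exceeded the highest Ctrl library, number 1.

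In the small subunit, Mrps26, which is found only in mitochondria, gave the largest change. It had 1379 to 1606 (median 1496, n = 6) in Ctrl and 1909, 2036, 1983, 2001 and 1849.8 in β-Mfn1/2DKO, and the groups did not overlap. The log2 fold change was 0.39 ± 0.058 (adjusted p = 5.20e-05). Mrps7, a protein of the subunit's head, had 1074 to 1229.9 (median 1130.3, n = 6) in Ctrl and 1358, 1420.2, 1341, 1493 and 1316 in β-Mfn1/2DKO, again without overlap (0.29 ± 0.061 (adjusted p = 0.00143)). Along the decoding and mRNA channel 1 of 3 members rose. This was Mrps5, with 1368 to 1575 (median 1495, n = 6) in Ctrl and 1812, 1926, 1790.1, 1849 and 1660.4 in β-Mfn1/2DKO. The groups did not overlap, and the log2 fold change was 0.28 ± 0.058 (adjusted p = 0.00123), but the direction turned with the authors' normalization factors, which gave -0.026 (adjusted p 0.930). Mrps24 gave 0.19 ± 0.092 (adjusted p = 0.195).

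Mrps12, the protein at the decoding centre itself, had 1419.6 to 2257 (median 1909, n = 6) in Ctrl and 1557, 1804, 1566, 1589 and 1287 in β-Mfn1/2DKO. Only 1 β-Mfn1/2DKO library, number 5, lay below all of Ctrl, where library 6 was the lowest. The value was -0.28 ± 0.10 (adjusted p = 0.0669), and it passed without Ctrl 6 (adjusted p 0.0103), without β-Mfn1/2DKO 2 (0.0450), with DESeq2 size factors (0.0382) and with replicate number as a block (0.000225). Mrps18b gave 0.22 ± 0.060 (adjusted p = 0.0131), Mrps18a 0.00895 as its adjusted p, and Mrps18c a log2 fold change of 0.003 ± 0.090 (adjusted p = 1). The differences among the 3 were not tested.

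The 3 members that fell were Mrps36, Mrps21 and Mrpl41. Mrps36 had 469.6 to 573 (median 499, n = 6) in Ctrl and 363, 444, 427, 416 and 416 in β-Mfn1/2DKO. Every Ctrl library lay above these, and the value was -0.30 ± 0.076 (adjusted p = 0.00782). It is the member whose product is not part of the ribosome by structure. Without β-Mfn1/2DKO 1 its adjusted p was 0.0501. Mrps21 had 1233 to 1507 (median 1445, n = 6) in Ctrl and 1119.5, 1299, 1144, 1147 and 1055 in β-Mfn1/2DKO, where library 2 was above the lowest Ctrl library, number 2. Its value was -0.30 ± 0.073 (adjusted p = 0.00557), and the direction turned with the authors' factors (0.015, adjusted p 0.939). Mrpl41, which is found only in mitochondria, had 1077 to 1199 (median 1121, n = 6) in Ctrl and 902, 1108, 958, 832 and 841 in β-Mfn1/2DKO, where library 2 was within the Ctrl range. Its value was -0.28 ± 0.095 (adjusted p = 0.0488), and the call was lost when any 1 of 17 libraries was left out (all but β-Mfn1KO 2 and 3 and β-Mfn1/2DKO 2), with adjusted p from 0.0519 to 0.169, and with replicate number as a block (0.0677). With total-count scaling these 3 gave -0.16, -0.16 and -0.14 and did not pass (adjusted p 0.204, 0.178 and 0.390), and without β-Mfn1/2DKO 4 and 5 adjusted p was 0.0517, 0.0783 and 0.385.

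**Figure D3:**
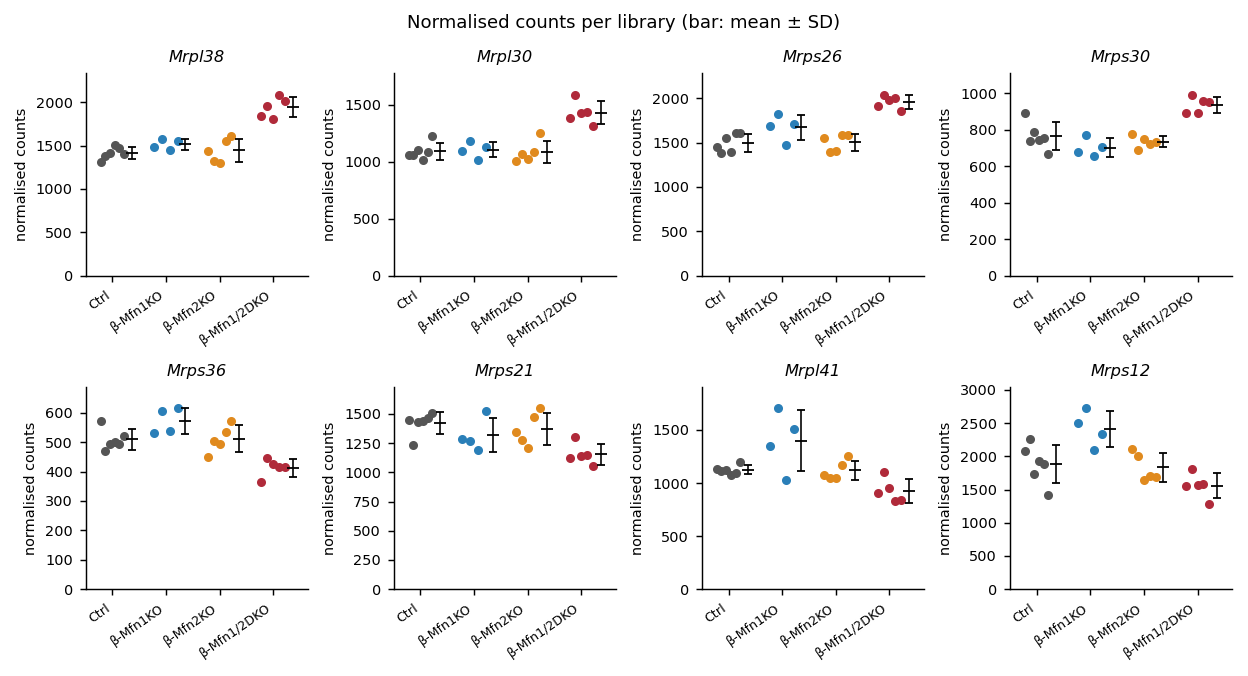
Normalised counts per library in the 4 genotypes for 4 members that rose in β-Mfn1/2DKO (top), the 3 that fell and Mrps12 (bottom), with a point for each library and a bar for mean and SD. In Mrpl38, Mrpl30 and Mrps26 the β-Mfn1/2DKO points lie above and in Mrps36 below all Ctrl points, while Mrps21, whose direction turned with the authors' normalization factors, and Mrps12 overlap.

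Without any test, 13 members had all β-Mfn1/2DKO libraries above all Ctrl libraries and 1 had them below. Among the 12274 genes, 11.98% had such a separation upward and 8.59% downward, beside 16.7% of members upward, a difference that was not tested. Of the 13, 7 were Mrpl and 6 were Mrps genes. Mrpl53, named after its values were seen, was the 1 of them that did not pass the test (0.14 ± 0.075 (adjusted p = 0.221)).

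Promoter sequences of members were also described. RefSeq promoter windows (GRCm38.p6, 300 bases, from 250 before to 50 after the transcription start) were available for 69 of the 78 members, and there was no entry for Mrpl13, Mrpl15, Mrpl19, Mrpl38, Mrpl4, Mrpl54, Mrps28, Mrps34 and Mrps35. Motifs were searched on both strands, and their letters were chosen after the files were seen. The NRF1 core GCGCATGC was present in 8 of 69 members (11.6%) and in 3.05% of 27025 genes. By subunit it was in 7 of 43 Mrpl genes (16.3%) and 1 of 26 Mrps genes (3.85%), the latter near all genes. The ETS core CCGGAAG was present in 26 (37.7%) against 9.93%, and the YY1 core AAGATGGC in 12 (17.4%) against 3.19%. The ETS core was in 15 Mrpl and 11 Mrps genes, and the YY1 core in 6 of each. The ATF4 half-site TGATGNAA was in 0 of the 69 members, against 4.51% of genes. Shares were also taken for members that rose and members that were not called, in that order: NRF1 11.1% of 18 and 12.5% of 48, ETS 33.3% and 39.6%, and YY1 16.7% and 18.8%. Cytosolic ribosomal protein genes had 6.94%, 36.1% and 8.33% of 72 genes, and the ATF4 half-site in 0 of them, as in members. These matches are a description of letters.

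Windows are printed below for 5 named members, as far as 30 bases after the start, with motif letters in capitals. They are examples, were picked after matches were known and say nothing of how often motifs occur. Mrpl9 (chr3:94443086-94443365 (+)) holds overlapping NRF1 cores, 1 on each strand. Mrps26 (chr2:130563507-130563786 (+)) holds an ETS core on the reverse strand, and Mrps7 (chr11:115603890-115604169 (+)) a YY1 core just after the start. Mrps12 (chr7:28741792-28742071 (-)) holds a YY1 and an ETS core, and Mrps36 (chr13:100744630-100744909 (-)) none of the 4.
Mrpl9: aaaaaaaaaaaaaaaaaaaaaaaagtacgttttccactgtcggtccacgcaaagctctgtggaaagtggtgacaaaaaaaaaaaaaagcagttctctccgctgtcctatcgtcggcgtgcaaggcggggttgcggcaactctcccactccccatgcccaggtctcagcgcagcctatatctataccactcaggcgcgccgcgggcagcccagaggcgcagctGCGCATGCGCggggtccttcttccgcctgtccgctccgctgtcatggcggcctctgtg
Mrps26: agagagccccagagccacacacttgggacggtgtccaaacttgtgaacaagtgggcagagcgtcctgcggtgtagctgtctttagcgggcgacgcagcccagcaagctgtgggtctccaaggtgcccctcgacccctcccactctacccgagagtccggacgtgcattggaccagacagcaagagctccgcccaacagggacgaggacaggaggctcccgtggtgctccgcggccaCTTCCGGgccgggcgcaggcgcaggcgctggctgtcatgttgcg
Mrps7: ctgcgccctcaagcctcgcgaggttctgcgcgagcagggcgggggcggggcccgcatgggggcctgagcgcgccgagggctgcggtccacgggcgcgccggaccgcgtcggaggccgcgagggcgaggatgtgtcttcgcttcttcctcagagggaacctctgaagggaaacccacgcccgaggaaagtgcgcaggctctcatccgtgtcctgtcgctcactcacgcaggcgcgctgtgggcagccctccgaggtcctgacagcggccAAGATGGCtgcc
Mrps12: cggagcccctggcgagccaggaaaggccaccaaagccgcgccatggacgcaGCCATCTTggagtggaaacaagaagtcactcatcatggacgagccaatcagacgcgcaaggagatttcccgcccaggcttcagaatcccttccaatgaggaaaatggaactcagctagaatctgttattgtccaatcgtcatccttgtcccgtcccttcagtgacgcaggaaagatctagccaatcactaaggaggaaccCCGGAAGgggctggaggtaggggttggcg
Mrps36: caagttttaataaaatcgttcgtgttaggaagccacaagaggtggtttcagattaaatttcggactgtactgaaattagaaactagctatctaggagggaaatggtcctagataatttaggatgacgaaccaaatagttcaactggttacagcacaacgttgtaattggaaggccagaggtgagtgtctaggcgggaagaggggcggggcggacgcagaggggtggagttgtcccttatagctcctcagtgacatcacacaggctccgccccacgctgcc

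The RNA of the same ribosome went the other way in β-Mfn1/2DKO. mt-Rnr1, the rRNA of the small subunit, had 4814 to 5939.5 (median 5408, n = 6) in Ctrl and 2339.9, 2518, 2552, 3114 and 3546 in β-Mfn1/2DKO. mt-Rnr2, the rRNA of the large subunit, had 16762 to 26994 (median 20478, n = 6) in Ctrl and 6196, 6396, 6653, 10698 and 13844 in β-Mfn1/2DKO. For both, every β-Mfn1/2DKO library was below every Ctrl library, and β-Mfn1/2DKO 4 and 5, with the high acinar sums, were the highest of their group. The log2 fold changes were -0.95 ± 0.11 (adjusted p = 2.98e-06) and -1.26 ± 0.19 (adjusted p = 4.38e-05). The sum of both rRNAs per normalised count of members was 0.248 to 0.365 in Ctrl, 0.264 to 0.308 in β-Mfn1KO, 0.205 to 0.357 in β-Mfn2KO and 0.0875 to 0.199 in β-Mfn1/2DKO. Taken alone, mt-Rnr1 had 6338 to 7998.5 in β-Mfn1KO, above every Ctrl library. It was not called there (0.38 ± 0.12, adjusted p = 0.515), and mt-Rnr2 gave -0.035. The messages that this ribosome translates followed the rRNAs: 13 of 13 mitochondrially encoded mRNAs fell in β-Mfn1/2DKO, with a median log2 fold change of -1.73. How the library preparation treated rRNA is not stated in the labels, so these values are compared between groups and not with mRNA levels.

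Other proteins of the mitochondrial ribosome carry symbols outside the rule. Of 5 such genes 0 were called by edgeR in β-Mfn1/2DKO (2 at an unadjusted p under 0.05, 0 by DESeq2). Chchd1 gave 0.27 ± 0.095 (adjusted p = 0.0562), Aurkaip1 0.15, Ptcd3 0.081, Dap3 0.016 and Gadd45gip1 0.013. Of 29 assembly factors 6 rose (20.7%) and 1 fell (3.45%), with a median of 0.075, against 19.5% and 14.02% of the 12274 genes, so the higher share was near the background. Rpusd3, a pseudouridine synthase, gave 0.47 ± 0.12 (adjusted p = 0.0100), Malsu1, which binds the large subunit, 0.38 ± 0.071 (adjusted p = 0.000554), and the GTPase Noa1 0.33 ± 0.061 (adjusted p = 0.000478). Trmt61b, a methyltransferase of mitochondrial RNA, fell (-0.48 ± 0.15 (adjusted p = 0.0282)). Of 17 translation factors 4 rose (23.5%) and 0 fell by edgeR, with 3 lower at an unadjusted p under 0.05 and 7 called either way by DESeq2. Mtrf1, of the release factor family, gave 0.44 ± 0.083 (adjusted p = 0.000647), the rescue factor Mtres1 0.31 ± 0.087 (adjusted p = 0.0158) and the recycling factor Mrrf 0.26 ± 0.067 (adjusted p = 0.00876). With total counts 15 assembly factors rose and 0 fell by edgeR, and with the depth class covariate 0 passed. Of all 28632 genes 5393 rose and 949 fell with total counts, and 728 were called with the depth class covariate.

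Genes of the cytosolic ribosomal protein set, chosen by symbol alone, gave larger shares. Of 98 such genes 56 rose (57.1%) and 1 fell in β-Mfn1/2DKO, with a median of 0.27, against 0.11 for the mitochondrial members. Under the other scalings 48 to 69 of them rose, while with the depth class covariate 2 rose and 8 fell. With that covariate 728 of all 28632 genes were called, against 4710 without it. Per 1000 normalised counts of cytosolic ribosomal proteins, members had 82.2 to 96.4 counts in Ctrl and 76.7 to 82.2 in β-Mfn1/2DKO, so 4 of 5 β-Mfn1/2DKO values were below the lowest Ctrl value and the other was level with it. The difference between the gene sets was not tested.

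**Figure D4:**
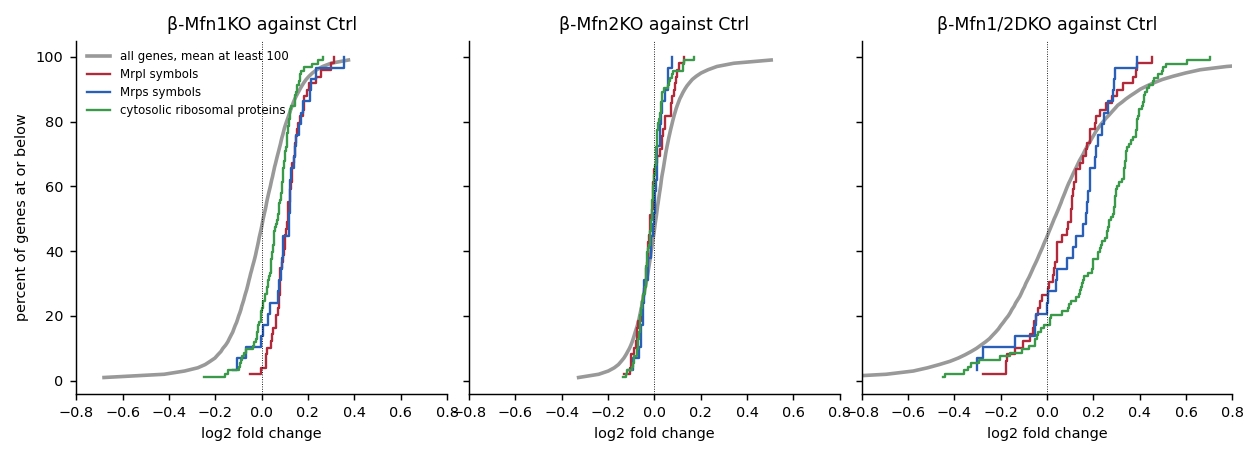
Cumulative percent of genes at or below a log2 fold change, for each genotype against Ctrl, in Mrpl genes, Mrps genes, cytosolic ribosomal protein genes and the 12274 genes with a mean of at least 100. The cytosolic set was chosen by symbol alone. In β-Mfn1/2DKO the medians are 0.10, 0.17, 0.27 and 0.031, and with total-count scaling the last of them is 0.17.

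Loss of Mfn2 alone left members close to Ctrl. By edgeR 0 of 78 members were called in β-Mfn2KO against Ctrl, with 0 at an unadjusted p under 0.05 and 0 by DESeq2. Of the 12274 genes 0.122% were called, so 0 is near the background. Log2 fold changes ran from -0.13 to 0.13, with medians of -0.017 for Mrpl and -0.0020 for Mrps genes, and 31 of 78 were above 0. The median member sat at -0.066, -0.068, -0.038, 0.038 and 0.066 in libraries 1 to 5, so the deep libraries 4 and 5 were the high ones. Here too the mitochondrially encoded mRNAs fell (10 of 13), but by edgeR 0 of 2 rRNAs were called (0 at an unadjusted p under 0.05, 0 by DESeq2).

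In β-Mfn1KO most members sat slightly above Ctrl, and no member was called. By edgeR 0 of 78 members passed in β-Mfn1KO against Ctrl, with 17 at an unadjusted p under 0.05, all higher, and 0 by DESeq2. Of the 12274 genes 0.0570% were called, 11.9% had an unadjusted p under 0.05 (852 higher, 603 lower) and 52.5% were above 0. Of the members 21.8% had such a p and 72 of 78 (92.3%) were above 0, and the median was 0.11 for Mrpl and 0.12 for Mrps genes, against 0.0070 for the 12274 genes. The lowest adjusted p was 0.433, for Mrpl17, with 1949 to 2363 (median 2169, n = 6) in Ctrl and 2585, 2571, 2352 and 2675 in β-Mfn1KO. The median member sat at 0.14, 0.21, -0.047 and 0.14 in libraries 1 to 4, so 3 libraries were above Ctrl and library 3 was below. Without β-Mfn1KO 3 the median over members was 0.16 and 1 member, Mrpl53, passed (adjusted p 0.0288). β-Mfn1KO libraries had depths like those of Ctrl, acinar sums of 6512 to 39144 and β-cell marker sums of 6651209.8 to 8398983. By sex they were 3 female and 1 male, against 3 and 3 in Ctrl. The part of these in the position of members above Ctrl was not tested.

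Across the 78 members, log2 fold change and transcript length had a Spearman correlation of -0.31 in β-Mfn1KO and 0.25 in β-Mfn1/2DKO against Ctrl. Both comparisons share the Ctrl libraries, and genes are not independent replicates, so this is a description. With GC content the values were 0.11 and 0.10. Members' median transcript length was 1052 bases.

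Adding the loss of Mfn1 to that of Mfn2 was examined as β-Mfn1/2DKO against β-Mfn2KO. Here 20 members rose and 2 fell, while 14.9% and 11.7% of the 12274 genes did. DESeq2 called 25. The 5 with the largest increase were Mrpl38 (0.42), Mrpl30 (0.39), Mrps26 (0.38), Mrpl9 (0.36) and Mrps30 (0.35), with adjusted p from 4.30e-05 to 0.000971. Mrps36 gave -0.31 ± 0.078 (adjusted p = 0.00861), and Mrps21 -0.26 ± 0.075 (adjusted p = 0.0260). Mrps21 did not pass when β-Mfn2KO 4 or 5 or β-Mfn1/2DKO 1, 3, 4 or 5 was left out (adjusted p 0.0657 to 0.119). The median was 0.088 for Mrpl and 0.15 for Mrps genes. With offsets for length and GC the split was 13 higher and 4 lower, and 1486 and 2062 over all 28632 genes. The count of calls was larger with total-count scaling and smaller with depth class as a covariate, as given below. Among the deep libraries alone, β-Mfn2KO 4 and 5 against all β-Mfn1/2DKO, 8 members were called, 7 of them higher. Of all 28632 genes 1221 rose and 584 fell in that fit, with a median log2 fold change of 0.074.

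Adding the loss of Mfn2 to that of Mfn1 gave a mixed picture. Depth differed between these groups without overlap, so depth and genotype cannot be told apart here. In β-Mfn1/2DKO against β-Mfn1KO, 11 members rose and 8 fell, and among the 12274 genes 19.3% rose and 15.9% fell, so neither share of members (14.1% and 10.3%) exceeded the background. DESeq2 called 26. The split was 7 higher and 11 lower with DESeq2 size factors, 28 and 3 with total counts, 7 and 12 with offsets for length and GC, and 4 and 8 with the authors' factors. Over all 28632 genes it was 2411 and 2563, 5542 and 1108, 2131 and 2897, and 1875 and 2049, in that order. Without β-Mfn1KO 1, 12 members were called, and without β-Mfn1KO 3, 5 rose and 15 fell. Decreases were led by Mrps12 and Mrpl41, the 2 members past a fold change of 1.5, as were 10.3% of the 12274 genes. Mrps12 had 2509.5, 2725, 2089 and 2337 in β-Mfn1KO, above every β-Mfn1/2DKO library, and gave -0.63 ± 0.11 (adjusted p = 0.000271). Mrpl41 had 1348, 1705, 1028 and 1511 in β-Mfn1KO, of which library 3 lay within the β-Mfn1/2DKO range, and gave -0.59 ± 0.10 (adjusted p = 0.000280). Mrps36 (-0.47), Mrps14 (-0.37) and Mrpl51 (-0.31) followed. Mrpl51 did not pass without β-Mfn1KO 1 or 2 or β-Mfn1/2DKO 1, 3 or 5 (adjusted p 0.0615 to 0.139). Increases were led by Mrps30 (0.41 ± 0.073 (adjusted p = 0.000260)), Mrpl30 (0.37), Mrpl38 (0.36), Mrps7 (0.30) and Mrps5 (0.25).

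The interaction asks whether losing Mfn1 had another effect when Mfn2 was absent than when it was present. Depth differed with genotype, so depth and such an effect cannot be told apart. At this test 4 members were positive and 3 negative, against 6.15% and 6.65% of the 12274 genes, so members did not exceed the background. DESeq2 called 13. Positive were Mrps30 (0.47 ± 0.10 (adjusted p = 0.00492)), Mrpl30 (0.375), Mrpl38 (0.32) and Mrps5 (0.29). Negative were Mrpl41 (-0.59 ± 0.14 (adjusted p = 0.0143)), Mrps12 (-0.58) and Mrps36 (-0.48). In the negative group each value was above 0 for β-Mfn1KO against Ctrl (0.31, 0.35 and 0.17, none called). Each was below 0 for β-Mfn1/2DKO against β-Mfn2KO (-0.28, -0.23 and -0.31), where only Mrps36 of these was called. Mrpl41 was the 1 member with a change past 1.5-fold, as in 5.39% of the 12274 genes. The split was 9 and 0 with total counts and 2 and 4 with offsets for length and GC. Over all 28632 genes it was 1855 and 437, and 611 and 1087, in that order. Mrpl30 did not pass without β-Mfn1KO 3 (adjusted p 0.0501), nor Mrps12 without β-Mfn1KO 2 (0.0624), nor Mrpl38 without β-Mfn1KO 1, β-Mfn1KO 3 or β-Mfn2KO 2 (0.0576 to 0.0595). Mrps5 did not pass without any 1 of 12 libraries (Ctrl 1, 4, 5 and 6, β-Mfn1KO 2, 3 and 4, β-Mfn2KO 1, 2 and 4, β-Mfn1/2DKO 2 and 4), with adjusted p 0.0504 to 0.107.

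For 12 members, counts may hold reads of another gene, because at least 10% of their transcript is shared or overlapped with a gene that has at least 20% of their counts. Which strand setting the counting used cannot be read from the labels. They are Mrpl14 (with Tmem63b), Mrpl18 (Tcp1), Mrpl19 (Gcfc2), Mrpl24 (Rrnad1), Mrpl43 (Twnk), Mrpl46 (Mrps11), Mrpl47 (Ndufb5), Mrpl48 (Rab6a), Mrpl53 (Gm42688), Mrps24 (Urgcp), Mrps25 (Nr2c2) and Mrps34 (Mapk8ip3). Only Mrpl43 of these rose in β-Mfn1/2DKO (0.23 ± 0.072 (adjusted p = 0.0300)), and its adjusted p was 0.0520 to 0.0813 without Ctrl 1, 2 or 4 or β-Mfn1/2DKO 5. Among the other 66 members, 20 rose and 3 fell, with a median of 0.11.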

How the data were processed

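Islet RNA of 20 samples was sequenced. Per the submitters' processing notes the authors used cutadapt 2.3, FastQC 0.11.8, STAR 2.6.1b, RSEM 1.3.1 and DESeq2 1.26.0 on GRCm38. The authors deposited a raw table whose unit is count, expected fragments per gene, and a depth-normalized table whose unit is signal. The raw table was used with all 20 columns, and 0 columns were left out. The other table gave only the authors' normalization factors, an alternative chosen after seeing the data. Symbols, transcript lengths and biotypes came from GENCODE M21, which matched 28561 of 28632 genes.

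edgeR 4.0.16 (limma 3.58.1, R 4.3.3) fitted all 28632 genes and 20 libraries at once, with TMM scaling, no filter and a coefficient per genotype. Quasi-likelihood F tests gave the contrasts. Calls are at an adjusted p (Benjamini-Hochberg) under 0.05, with a further threshold of 1.5-fold. Normalised counts are TMM-scaled to the mean effective library size of 41410701. Tables and plots used Python 3.11.15 with pandas 2.3.3, NumPy 2.4.6, SciPy 1.17.1 and Matplotlib 3.10.9.

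Named members are the 10 largest changes each way in β-Mfn1/2DKO against Ctrl and up to 5 each way in other contrasts among those called, the 3 highest and 3 lowest per kilobase, those at the stalk, exit tunnel, peptidyl transferase centre and decoding channel, and Mrps18 paralogs, Mrps30 and Mrps36. Members and lists were chosen with earlier results of these data known. Limits for uncertain genes (10% and 20%, stretches of 75 bases), motif letters and the promoters printed were chosen after the files were seen.

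Alternatives were DESeq2 1.42.0 and its size factors, total counts, TMM from nuclear genes, filterByExpr, fits of 2 groups, sex, replicate number, acinar score or depth class as a covariate, counts thinned to 12400687 per library, deep libraries, length and GC offsets, and leaving out libraries.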

Additional observations from a re-analysis of the deposited data

Results flagged for a closer look

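A gap between 1 library and the rest of its group that was large for the group's range (Dixon's 95% limit) was found in 10 of 196 groups of libraries of named genes. Chance gives about 1 in 20. Mrpl50 stood at 1567 in Ctrl 2 (the others 1258 to 1365), Mrps21 at 1233 in Ctrl 2 (1434 to 1507) and Mrps24 at 1379 in Ctrl 6 (1052 to 1128). Mrpl2 stood at 1624 in β-Mfn1/2DKO 5 (1762 to 1806) and Mrpl24 at 3229 in β-Mfn1/2DKO 2 (2784 to 2890.1). Mrpl45 was high in 2 libraries, at 698 in β-Mfn1KO 2 (604 to 617) and 799 in β-Mfn1/2DKO 2 (679 to 698). Chchd1 stood at 1255 in Ctrl 6 (997 to 1085) and 1675 in β-Mfn1KO 2 (1115 to 1159). Mfn1 stood at 1807 in β-Mfn2KO 4 (1683 to 1712).

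A difference between groups was found where the effect of losing Mfn1 was unlike with and without Mfn2, by the interaction test of edgeR. On the log2 scale it was 0.375 for Mrpl30 (adjusted p = 0.0208), 0.32 for Mrpl38 (0.0272), 0.29 for Mrps5 (0.0483) and 0.47 for Mrps30 (0.00492). It was -0.59 for Mrpl41 (0.0143), -0.58 for Mrps12 (0.0215) and -0.48 for Mrps36 (0.0124). The rRNAs gave -1.51 for mt-Rnr1 (1.97e-05) and -0.99 for mt-Rnr2 (0.0295). The mt-Rnr1 value takes in 0.384 for β-Mfn1KO against Ctrl, which was not called, and -1.13 for β-Mfn1/2DKO against β-Mfn2KO.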

How the results depend on the processing

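Counts of called members were 24 in β-Mfn1/2DKO against Ctrl, 0 in each single deletion against Ctrl, 22 in β-Mfn1/2DKO against β-Mfn2KO, 19 in β-Mfn1/2DKO against β-Mfn1KO and 7 for the interaction. With total-count scaling they were 43 in β-Mfn1/2DKO against Ctrl, 35 against β-Mfn2KO and 31 against β-Mfn1KO. Over all 28632 genes that scaling gave 6342, 4714 and 6650 calls, in the same order. With depth class as a covariate the counts of members were 2, 7, 4 and, for the interaction, 3. Calls over all 28632 genes were then 728, 1683, 1235 and 911, against 4710, 3719, 4971 and 1694 without the covariate. With deep libraries alone, β-Mfn1/2DKO against β-Mfn2KO gave 8 members, and 1805 of all 28632 genes. With acinar score as a covariate β-Mfn1/2DKO against β-Mfn1KO gave 12, and 3549 of all 28632 genes. With the authors' normalization factors, chosen after seeing the data, it gave 12 and the interaction 4. Those fits called 3924 and 1268 of all 28632 genes. The interaction gave 13 by DESeq2, with 2851 of 16342 genes called. Without β-Mfn1/2DKO 4 and 5 the interaction gave 4 members, and 1166 of all 28632 genes. Fits without any 1 library gave 18 to 28 for β-Mfn1/2DKO against Ctrl, 0 to 1 for β-Mfn1KO against Ctrl (1 without β-Mfn1KO 3), 15 to 28 against β-Mfn2KO, 12 to 20 against β-Mfn1KO (12 without β-Mfn1KO 1) and 5 to 10 for the interaction. For β-Mfn2KO against Ctrl the count was 0 in every fit.

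The Mrpl median in β-Mfn1/2DKO against Ctrl was 0.10, 0.24 with total counts, -0.019 with depth class, and 0.087 to 0.13 without 1 library. With length and GC offsets it was lower too. It then lay 0.054 above the median of all genes, which was -0.018, against 0.072 above a median of 0.031 without offsets. The Mrps median was 0.17, 0.31 with total counts, -0.0060 with depth class, 0.077 with length and GC offsets, and 0.14 to 0.19 without 1 library. Mrps5 (-0.026) and Mrps21 (0.015) changed sign with the authors' factors. The cause was not tested. Of 17 named members called, 16 still passed by DESeq2, 13 after thinning to equal totals, 10 with the authors' factors and 2 with depth class. With sex as a covariate 15 still passed, with total counts 14 and with length and GC offsets 13. Among 18 not called, treated as values without a call, 10 moved by more than their standard error with depth class. With total counts 10 moved in this way and 8 passed the test, and with sex as a covariate 2 passed.

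Replicate number as a block gave 26, 0, 0, 24, 15 and 5 called members in the 6 comparisons. Over all 28632 genes it gave 4950, 25, 10, 3940, 4695 and 1457 calls, in the same order. For β-Mfn1/2DKO against β-Mfn1KO and for the interaction the counts of members were lower than without the block. Some calls given above for these comparisons were therefore lost with it. In β-Mfn1/2DKO against Ctrl, Mrpl41 lost its call with the block (adjusted p 0.0677), and Mrps12 (0.000225) and Mrpl45 (0.0340) passed. Across groups, 21 of 27 same-number pairs had a correlation over 0.1, with a mean of 0.258 (-0.105 to 0.586), against a mean of -0.0573 for the other pairs. Number goes with sex: the mean was 0.309 in 23 same-number and 0.200 in 50 other pairs of like sex, and -0.0336 in 4 and -0.236 in 72 pairs of unlike sex. What the number stands for is not stated.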
